A study of Medicago sativa with 86 samples.

Results

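A set of 60 alfalfa leaf genes was higher at elevated than at ambient CO2 in plants with ineffective nitrogen fixation and lower in plants with effective nitrogen fixation, in both cultivars of the study. The set was chosen by that pattern from the read counts of 85 leaf libraries. Counts were scaled to CPM (the count of a gene divided by the total of its library, on a scale shared by all libraries) and put on a log2(CPM + 1) scale, and for each cultivar and fixation class, called a line here, the mean at 600 ppm minus the mean at 420 ppm CO2 was taken with the 3 nitrate levels weighted equally. The score of a gene is the smallest of its 2 differences in the ineffective lines and of its 2 differences with the sign turned in the effective lines. Of 49095 identifiers 12707 had a mean of at least 5 CPM, 667 of these (5.25%) had a score above 0, and the 60 with the highest scores are the members. All 60 also passed the filter on low counts of the tests below. Since the CO2 differences chose the members, those differences are given as a description, with no test.

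Messenger RNA was sequenced from leaves of *Medicago sativa*, a forage legume. The cultivars Agate and Saranac were each represented by a class labelled effective and a class labelled ineffective for nitrogen fixation, and all pots received rhizobium. Each class was given 6, 10 or 16 mM KNO3 and kept at 420 ppm (ambient) or 600 ppm (elevated) CO2, which makes 24 groups, 11 with 3 libraries and 13 with 4. The labels do not say if the ineffective class is a property of the plant, the bacterium or both. Ambient and elevated CO2 were separate growth chambers, and effects of chamber and of CO2 cannot be told apart. No separate plants are named for the replicates, so a p-value here measures spread between these libraries, which may be technical. The cultivars and classes were grown under each combination of nitrate and CO2, so the response to CO2 can be compared between the labelled fixation classes.

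Legumes house rhizobia in root nodules, where the bacteria turn dinitrogen into ammonia in exchange for carbon from the leaf. Plants with ineffective nodules have little of this nitrogen and depend on nitrate from the soil. Elevated CO2 speeds carbon fixation in leaves, and where nitrogen supply lags, leaves commonly accumulate carbohydrate and lose nitrogen-rich proteins of photosynthesis.

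The total count was 13543807 to 25910031 per library. The 100 genes with the highest mean CPM held 19.9% to 47.3% of the counts of a library. The identifiers are not paired with gene names in the sources used here (0 of 49095 matched the reference table), so members are given by identifier and nothing is said of their function. In bulk leaf RNA a lower value can come from fewer cells of a type or from less RNA per cell, which cannot be told apart. CPM also grows with transcript length, so levels are compared between libraries and not between genes.

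On the CPM scale the median differences of the members were of similar size in both directions, and under TMM scaling, given below, they were larger in the effective lines. In effective Agate the 60 members were lower at 600 ppm by 0.30 to 3.15 on the log2(CPM + 1) scale, with a median difference of -0.54. In effective Saranac the differences ran from -3.70 to -0.30 with a median of -0.61. In ineffective Agate the members were higher by 0.32 to 2.09 with a median of 0.62, and in ineffective Saranac by 0.31 to 3.28 with a median of 0.71. These medians correspond to 0.689 and 0.653 times the ambient level in effective Agate and Saranac, and to 1.54 and 1.63 times in ineffective Agate and Saranac. The difference was larger than 1 in 12 and 8 members in effective Agate and Saranac and in 13 and 18 members in the ineffective lines. The effective lines set the score of most members, Agate of 21 and Saranac of 19, while each ineffective line set that of 10. In the ineffective class 41 members had the larger rise in Saranac.

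**Figure D1:**
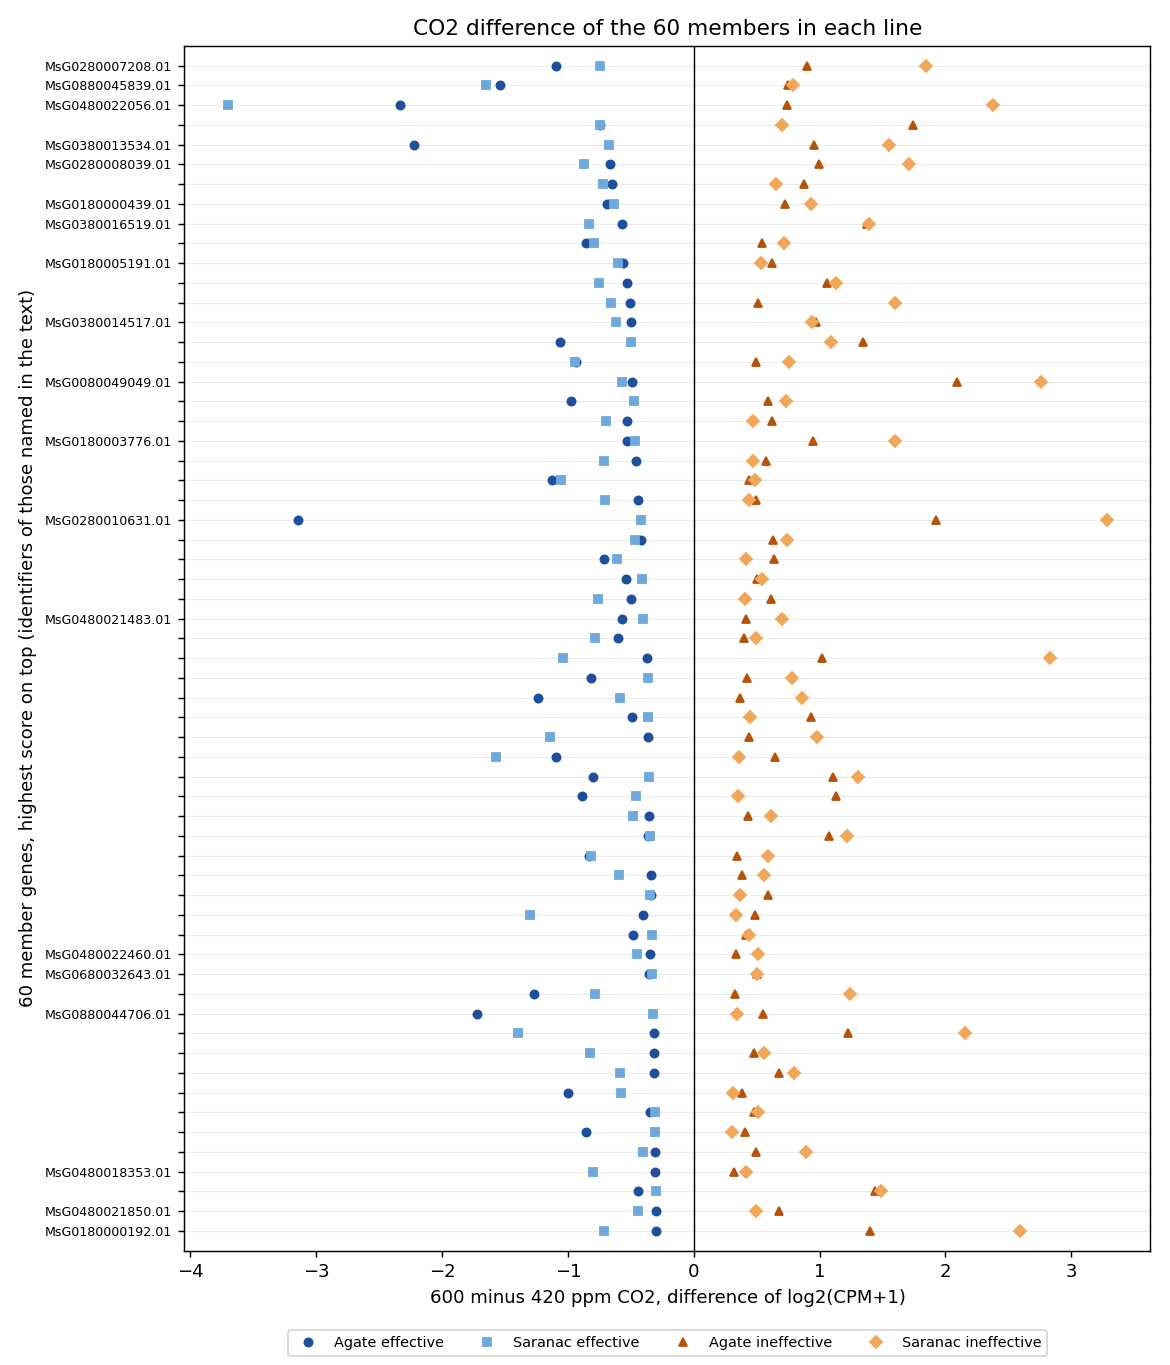
CO2 difference of each of the 60 members in the 4 lines, as the mean log2(CPM + 1) at 600 ppm minus that at 420 ppm, with 1 row per member and the highest score on top. Blue points (effective lines) lie at or below -0.30 and orange points (ineffective lines) at or above 0.31, as the rule requires, and a few members reach beyond -3 or 3.

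The scaling of the counts moved these values. The median difference over all 12707 genes was 0.25 and 0.21 in effective Agate and Saranac and 0.31 and 0.32 in ineffective Agate and Saranac. Scaling by TMM, which centres the bulk of the genes, shifted the median of all genes by -0.24 and -0.21 in the effective lines and by -0.31 and -0.30 in the ineffective lines. With CPM scaled by TMM all 60 members kept their direction in all 4 lines, with medians of -0.78 and -0.81 in effective and 0.31 and 0.41 in ineffective Agate and Saranac. In the effective lines the shift goes with the rule. In ineffective Agate and Saranac it was close in size to the lowest member differences on the CPM scale, 0.32 and 0.31. In the edgeR fit below, which also uses TMM, 55 of the 60 members were above 0 in ineffective plants. The rule on TMM values named 23 of the 60 again. The share of counts in the 100 most abundant genes moved with CO2 as well: its median was 40.6% and 41.4% in effective Agate and Saranac at 420 ppm and 32.8% and 32.4% at 600 ppm. In ineffective Agate and Saranac it went from 39.7% and 40.3% to 25.3% and 25.1%. Its part in the differences was not tested.

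The members differed less between the fixation classes at ambient than at elevated CO2. At ambient CO2 most were lower in ineffective than in effective Agate. At 420 ppm the ineffective minus the effective line had a median over members of -0.15 in Agate, where 13 of 60 were positive, and of -0.06 in Saranac, where 25 were. At 600 ppm the medians were 1.13 in Agate, with 57 positive, and 1.39 in Saranac, with 59 positive. Over all 12707 genes the medians in Agate and Saranac were 0.05 and 0.01 at 420 ppm and 0.11 and 0.12 at 600 ppm. Averaged over the cultivars, 52 members differed between classes by less than 0.5 at 420 ppm and 59 by more than 0.5 at 600 ppm. Of the 60 members 29 were lower in ineffective plants of both cultivars at 420 ppm and higher in both at 600 ppm. All of these values come from the libraries that chose the members. The rule itself requires the ineffective minus the effective line to rise from 420 to 600 ppm in each cultivar.

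The mean level of the members in a library, as the mean over members of log2(CPM + 1) centred per gene, shows how the libraries lie. In effective Agate it ran from -0.42 to 0.54 with a median of 0.14 at 420 ppm (n = 11) and from -1.04 to -0.34 with a median of -0.55 at 600 ppm (n = 11). In effective Saranac it ran from -0.21 to 0.29 with a median of 0.04 at 420 ppm (n = 11) and from -1.10 to -0.26 with a median of -0.63 at 600 ppm (n = 10). Thus every effective Saranac library at 600 ppm lay below all of those at 420 ppm, while in effective Agate the ranges overlapped. In ineffective Agate the level ran from -0.70 to 0.64 with a median of -0.34 at 420 ppm (n = 10) and from -0.55 to 1.04 with a median of 0.54 at 600 ppm (n = 11). In ineffective Saranac it ran from -0.23 to 0.74 with a median of -0.03 at 420 ppm (n = 10) and from 0.30 to 1.51 with a median of 0.97 at 600 ppm (n = 11). Both ineffective lines overlapped between CO2 levels, each through 1 high library at 420 ppm and low ones at 600 ppm. The high libraries were ineffective Agate replicate 3 and ineffective Saranac replicate 1, both at 10 mM, and the lowest at 600 ppm was ineffective Agate replicate 3 at 6 mM. Without these 3 libraries, a setting chosen after the data were seen, all 60 members kept their direction in every line. The medians were 0.81 and 0.76 in ineffective Agate and Saranac and stayed at -0.54 and -0.61 in the effective lines. The libraries left out are those that lay against the rule, so the larger medians follow from leaving them out and add no support. The rule named 45 of the 60 again. At 600 ppm 21 of 22 ineffective libraries lay above all 21 effective ones, and at 420 ppm 2 of 20 ineffective libraries lay above all 22 effective ones. The members were chosen by the CO2 differences of these same libraries. How the libraries separate in member level thus describes that choice and adds no support for the pattern.

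**Figure D2:**
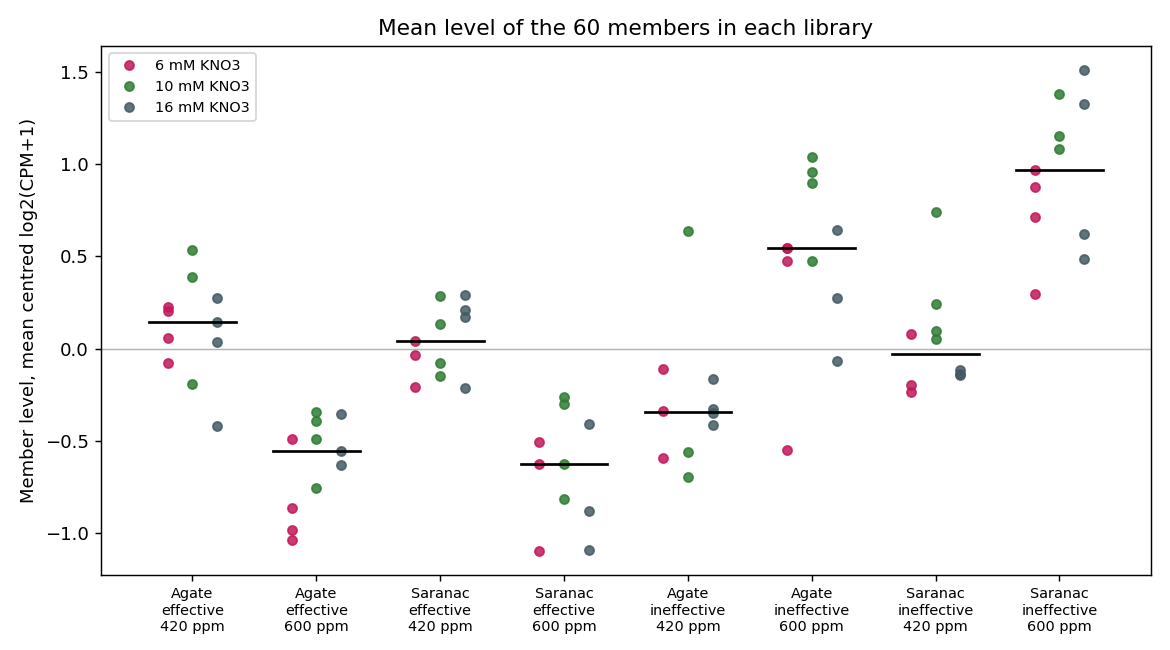
Mean level of the 60 members in each of the 85 libraries, as the mean of log2(CPM + 1) centred per gene, by line and CO2 level. Each point is a library coloured by KNO3 level and each bar is a median. The medians at 600 ppm are -0.55 and -0.63 in the effective lines and 0.54 and 0.97 in the ineffective lines.

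How far the pattern carries to libraries that did not choose the genes was looked at by applying the rule without the libraries of 1 replicate number and reading the 60 genes so chosen in the libraries left out. This check was chosen after the data were seen. A left-out value rests on 1 to 3 nitrate levels, each with 1 library per CO2 level. Those of replicate 2 in ineffective Agate (46 of 60) and replicate 1 in ineffective Saranac (43 of 60) rest on 1 nitrate level and 2 libraries. In the left-out libraries of replicate numbers 1, 2 and 4, the genes so chosen had the direction of the rule in 42 to 48 of 60 cases in effective Agate, where 28.8% to 56.8% of all genes had it, and in 42 to 50 in effective Saranac, where 28.3% to 39.5% did. In the same numbers they had it in 46 to 49 of 60 in ineffective Agate, beside 64.8% to 69.9% of all genes, and in 43 to 56 in ineffective Saranac, beside 71.8% to 73.5%. The 43 were those of replicate number 1 in ineffective Saranac, a share close to the 71.8% of all genes there, and the median of 0.36 lay below the 0.46 of all genes. Replicate number 3 differed between the cultivars. In its Agate libraries 29 of 60 genes had the direction in the effective line, beside 28.8% of all genes, with a median of 0.07 against 0.28 over all genes. In its ineffective Agate libraries 29 of 60 had it, fewer than the 69.6% of all genes, with a median of -0.03 against 0.26. In its effective and ineffective Saranac libraries 46 and 50 of 60 had it, beside 30.96% and 65.5% of all genes, with medians of -0.46 and 0.45. Over the 4 numbers the medians in the left-out libraries ran from -0.59 to -0.37 in effective Saranac, where those of all genes ran from 0.14 to 0.33, and from 0.36 to 0.85 in ineffective Saranac, where those of all genes ran from 0.28 to 0.46. In effective Agate the medians in the left-out libraries ran from -0.70 to 0.07, where those of all genes ran from -0.09 to 0.35. In ineffective Agate they ran from -0.03 to 0.83, where those of all genes ran from 0.24 to 0.32. The replicates may be technical, so the left-out libraries may not be independent of those the rule used. The genes chosen without replicate 1, 2, 3 or 4 included 33, 37, 29 and 38 of the 60 members.

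Single members show the pattern at different levels and with different spread. MsG0280007208.01 had the highest score, 0.75. In effective Agate it ran from 31.8 to 224 CPM with a median of 72.9 at 420 ppm and from 17.8 to 66.9 with a median of 37.1 at 600 ppm. In effective Saranac it ran from 25.8 to 111 CPM with a median of 52.7 and from 13.4 to 128 with a median of 35.1. Medians were lower at 600 ppm in both, with overlapping ranges. In ineffective Agate it ran from 13.6 to 702 CPM with a median of 45.4 at 420 ppm and from 25.4 to 329 with a median of 132 at 600 ppm. In ineffective Saranac it ran from 11.04 to 104.5 CPM with a median of 34.7 and from 49.9 to 207 with a median of 133. The highest value of this gene was a single ineffective Agate library at ambient CO2, while in ineffective Saranac 7 of 11 libraries at 600 ppm lay above all 10 at 420 ppm.

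MsG0880045839.01, the next in score, was low in effective plants at elevated CO2. In effective Agate it ran from 2.45 to 48.5 CPM with a median of 11.8 at 420 ppm and from 1.499 to 9.64 with a median of 3.30 at 600 ppm. In effective Saranac it ran from 3.42 to 102 CPM with a median of 15.6 and from 0.613 to 13.03 with a median of 4.92. In these lines 8 and 7 of 11 libraries at 420 ppm lay above every library at 600 ppm. In ineffective Agate the medians were 12.6 CPM at 420 ppm (2.67 to 41.1) and 20.96 CPM at 600 ppm (7.38 to 44.4). In ineffective Saranac they were 25.7 CPM (4.07 to 62.9) and 37.9 CPM (15.6 to 77.2). The ineffective ranges overlapped widely, and 2 and 1 of 11 libraries at 600 ppm lay above all of those at 420 ppm.

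MsG0280008039.01 had the highest mean CPM of the members, 769 over all libraries. Its medians were 635 CPM at 420 ppm (285 to 1055) and 411 CPM at 600 ppm (244 to 682) in effective Agate. In effective Saranac they were 667 CPM (362 to 952) and 305 CPM (261 to 693). In ineffective Agate the medians were 567 CPM at 420 ppm (266 to 2176) and 1308 CPM at 600 ppm (495 to 2834), and in ineffective Saranac they were 407 CPM (251 to 1131) and 1370 CPM (713 to 2450). Libraries at 600 ppm in ineffective Saranac were the most separated: 8 of 11 lay above all 10 at 420 ppm.

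MsG0480018353.01 had the lowest spread between libraries of a group, with a within-group SD of 0.31 on the log2(CPM + 1) scale, and stood near the threshold with a score of 0.31. Its medians were 19.3 and 17.3 CPM at 420 and 600 ppm in effective Agate and 22.2 and 13.2 CPM in effective Saranac. They were 19.2 and 23.9 CPM in ineffective Agate and 23.2 and 29.9 CPM in ineffective Saranac. The range was narrow, from 8.63 to 44.3 CPM over all 85 libraries, and it overlapped between CO2 levels in every line. In effective Saranac 8 of 11 libraries at 420 ppm lay above all 10 at 600 ppm. Just inside the threshold stood MsG0480021850.01 and MsG0180000192.01 with scores of 0.3002 and 0.2987, and just outside it MsG0380015362.01 and MsG0480023519.01 with 0.2960 and 0.2955.

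**Figure D3:**
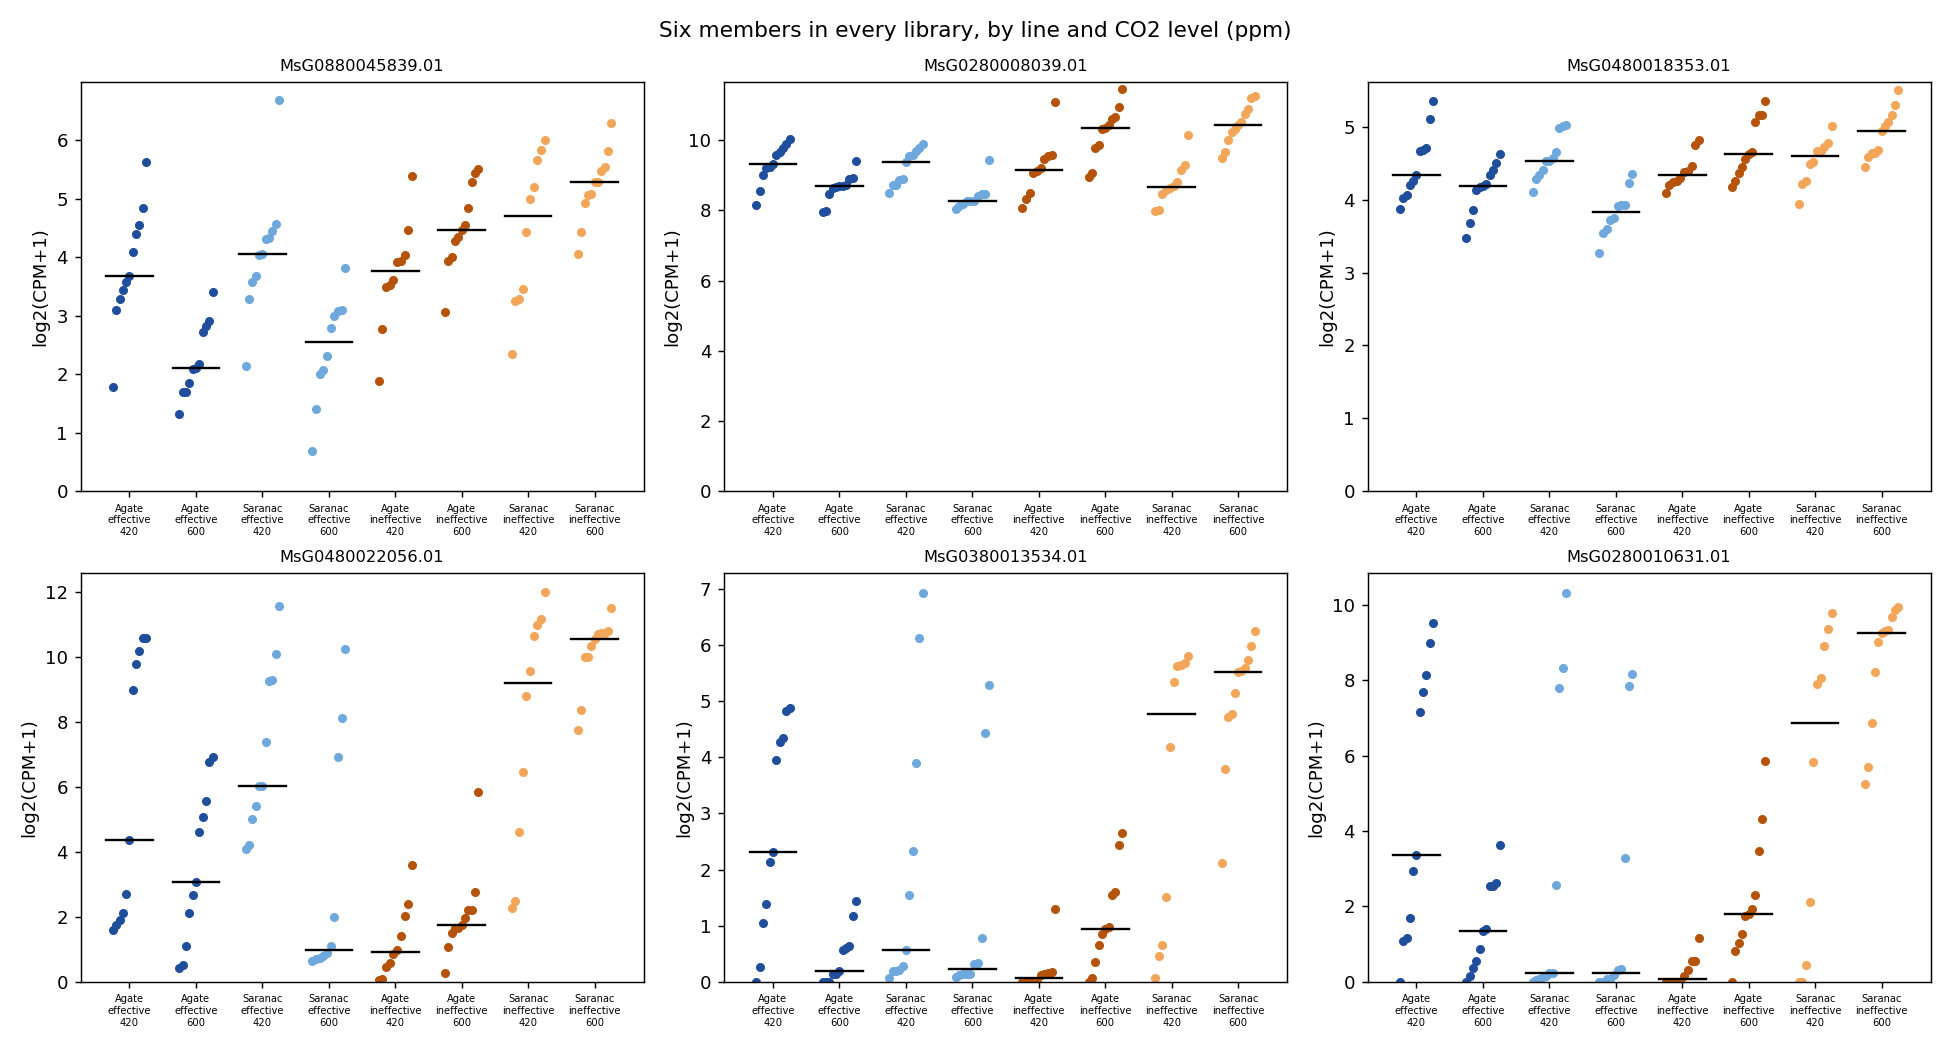
Level of 6 members in every library on the log2(CPM + 1) scale, by line and CO2 level, with each point a library and each bar a median. The members of the upper row have points in one band per set, while those of the lower row are near 0 in some libraries and high in others of the same set, as MsG0480022056.01 in effective Agate at 420 ppm, which ran from 2.02 to 1543 CPM.

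The direction was examined at each nitrate level. Over the 12 pairs of line and nitrate level, 46 to 59 of the 60 members had the direction of the rule. Of all 12707 genes 21.6% to 42.6% had it in the 6 effective pairs and 66.1% to 79.2% in the 6 ineffective pairs. The lowest count was in effective Agate at 16 mM, where 46 members were lower at 600 ppm with a median difference of -0.36, beside 21.6% of all genes and a median of 0.46. The highest count was in ineffective Agate at 10 mM, where 59 were higher with a median of 0.99, beside 79.2% of all genes and a median of 0.44. In effective Agate the medians were -0.86 at 6 mM and -0.71 at 10 mM. In effective Saranac they were -0.82, -0.46 and -0.75 at 6, 10 and 16 mM, and in ineffective Saranac 0.46, 0.74 and 0.97. The remaining medians, in ineffective Agate at 6 and 16 mM, were 0.65 and 0.49. Every nitrate level thus had a negative median in both effective lines and a positive one in both ineffective lines. The rule averaged these same differences, so the counts and medians describe the members and add no support for the pattern. In all 12 pairs 15 members had the direction of the rule, and 21 of the 12707 genes did (0.165%), a share the rule itself enters.

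**Figure D4:**
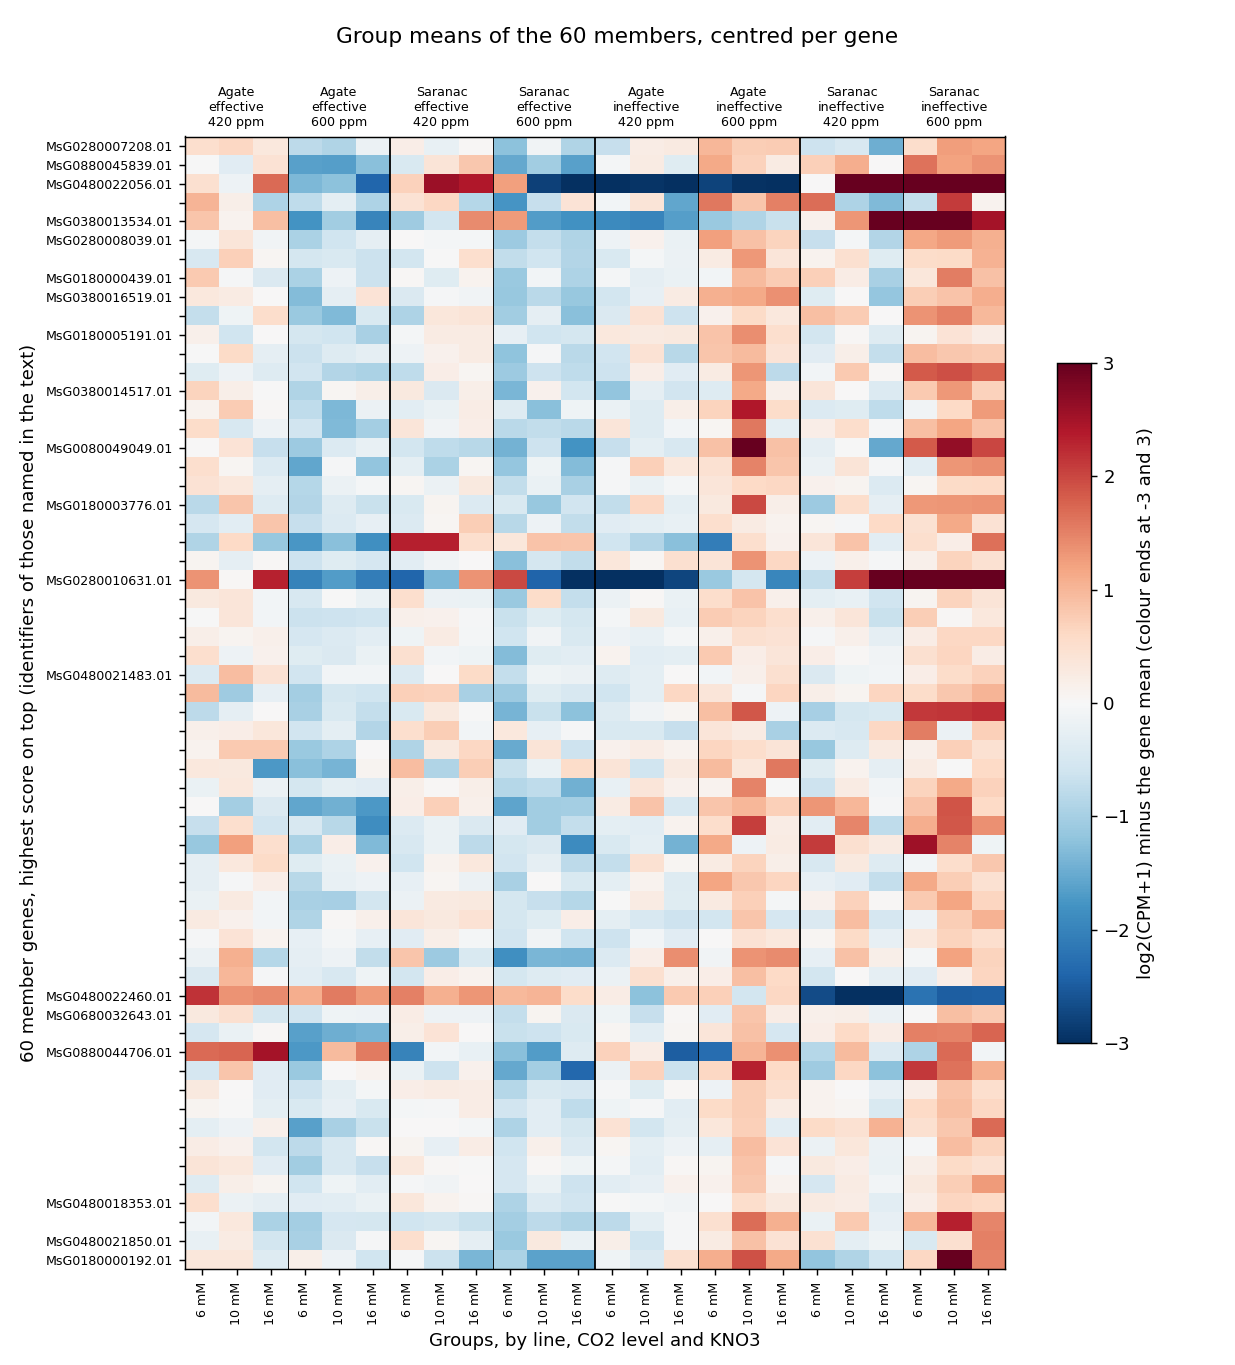
Group means of the 60 members in the 24 groups as log2(CPM + 1) minus the mean of the gene over groups, from blue (lower) to red (higher), with members by score and columns by line, CO2 level and KNO3. Most rows are pale at 420 ppm, blue in effective plants at 600 ppm and red in ineffective plants at 600 ppm, and MsG0480022460.01 is blue in all 6 groups of ineffective Saranac.

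In the fit over all 24386 genes that passed the filter on low counts (quasi-likelihood F-test of edgeR, adjusted p under 0.05), 19 members were called higher at 600 ppm in ineffective plants and 48 lower in effective plants, beside 16.8% of all genes called higher in ineffective and 14.4% called lower in effective plants. The CO2 response differed between fixation classes in 47 members, all higher in ineffective plants, beside 4.42% of all genes. In that fit, which uses TMM scaling, 55 of the 60 members had a log2 fold change above 0 in ineffective plants, with a lowest value of -0.17, and all 60 were below 0 in effective plants. The median over members was 0.38 in ineffective and -0.94 in effective plants. The rule used these contrasts, so nothing is read from the counts.

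The rule did not use fixation class over both CO2 levels as a contrast, but the class difference at 600 ppm is part of that contrast. Most members were higher in ineffective plants. Of the 60 members 35 were higher and 1 was lower in ineffective plants by edgeR, beside 10.6% of the 24386 genes higher and 11.4% lower. Among the 12707 genes of at least 5 CPM 14.3% were higher and 12.2% lower, and 28.8% of the 607 other genes with a score above 0 were higher. The median log2 fold change was 0.53 over the members and -0.01 over all genes, and the called members changed by 0.23 to 2.20 with a median size of 0.73. The contrast weights all groups of a class equally and is at right angles to the CO2 contrasts, but it comes from the same libraries. A gene whose classes differ more at 600 than at 420 ppm can enter both. Averaged over the cultivars, 56 of the 60 members differed more at 600 ppm. The calls are thus not independent of the choice of the members. The count of called members ran from 27 to 40 over the alternatives and from 33 to 38 in limma-trend with each library left out in turn.

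MsG0180000192.01 had the largest log2 fold change of the members that were higher. It ran from 0 to 8.77 CPM with a median of 1.59 in the 43 effective libraries and from 0 to 209 CPM with a median of 5.52 in the 42 ineffective ones, a log2 fold change of 1.88 ± 0.44 (SE, edgeR adjusted p = 0.00124). The ranges overlapped from 0 upward, and the ineffective libraries held the high values. At 420 ppm its medians in Agate and Saranac were lower in ineffective (2.78 and 0.701 CPM) than in effective plants (4.85 and 1.02 CPM). At 600 ppm they were higher, with 6.40 and 10.7 CPM in ineffective and 2.92 and 0.287 CPM in effective plants. MsG0080049049.01 ran from 2.84 to 66.3 CPM with a median of 7.51 in effective and from 1.97 to 167 CPM with a median of 31.7 in ineffective libraries, a log2 fold change of 1.64 ± 0.25 (SE, edgeR adjusted p = 1.96e-06). Its high level lay at elevated CO2: in ineffective Agate and Saranac its medians were 5.60 and 6.13 CPM at 420 ppm and 54.6 and 60.9 CPM at 600 ppm. In effective Agate and Saranac they were 13.1 and 9.73 CPM at 420 ppm and 7.47 and 5.01 CPM at 600 ppm.

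MsG0480022460.01 was the member that was lower in ineffective plants. It ran from 17.99 to 104 CPM with a median of 49.9 in effective and from 0 to 116 CPM with a median of 15.2 in ineffective libraries, a log2 fold change of -2.20 ± 0.35 (SE, edgeR adjusted p = 3.74e-06). The lowest level was in ineffective Saranac, with a median of 0.690 CPM (0 to 26.4, n = 21), against 31.8 CPM in ineffective Agate (0.160 to 116, n = 21). Effective Saranac stood at 45.8 CPM (17.99 to 93.4, n = 21), so the ranges of the Saranac classes overlapped only between 17.99 and 26.4 CPM. The difference between cultivars in the fixation effect was -1.87 ± 0.67 and did not pass the threshold (edgeR adjusted p = 0.0639). In ineffective Saranac its medians at the CO2 levels were close, with 0.686 CPM at 420 ppm and 0.690 CPM at 600 ppm.

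**Figure D5:**
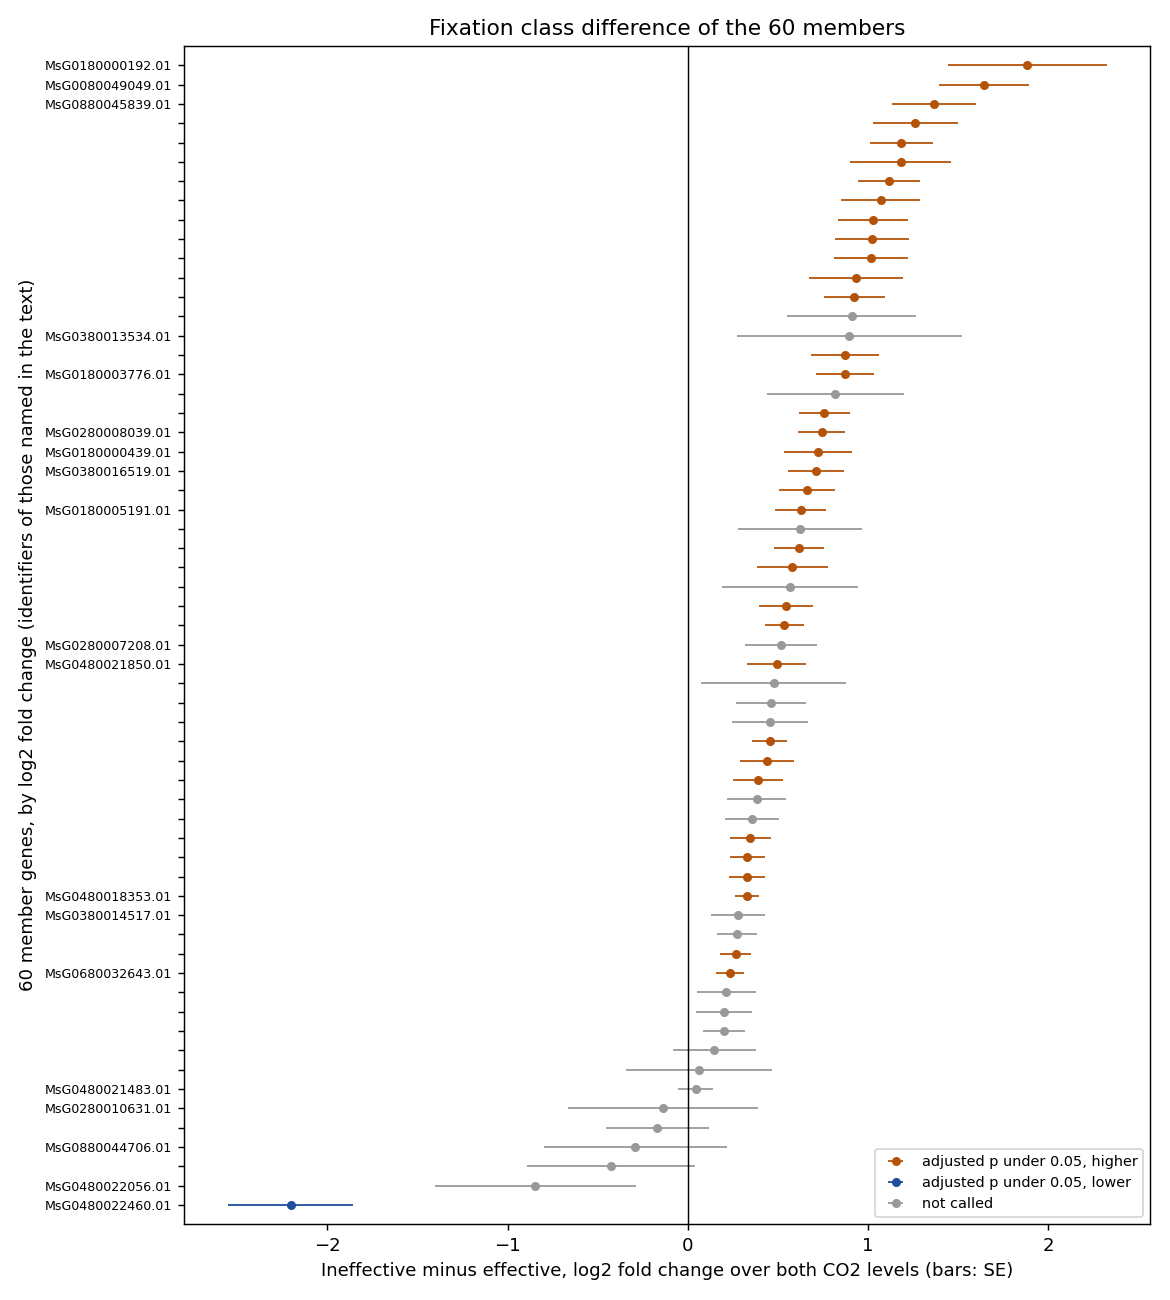
Log2 fold change of each of the 60 members between ineffective and effective plants over both CO2 levels and all nitrate levels, with the SE as bars and coloured by edgeR adjusted p. The 35 orange members are higher in ineffective plants, the blue one is MsG0480022460.01 at -2.20, and 24 grey members were not called.

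Cultivar separated few members, a share close to that of all genes. In Saranac 7 members were higher and 2 lower than in Agate, beside 7.38% of all genes called higher and 8.64% called lower by edgeR. MsG0480022056.01 ran from 0.0460 to 1543 CPM with a median of 3.36 in the 43 Agate libraries and from 0.572 to 4038 CPM with a median of 303 in the 42 Saranac ones, a log2 fold change of 4.20 ± 0.63 (SE, edgeR adjusted p = 2.16e-06). MsG0280010631.01 ran from 0 to 732 CPM with a median of 1.40 in Agate and from 0 to 1277 CPM with a median of 43.6 in Saranac, one of 4.09 ± 1.05 (SE, edgeR adjusted p = 0.00424). Both had overlapping ranges, and the second lost its call without replicate 1 (adjusted p = 0.494) and without replicate 4, where the log2 fold change was 1.23 (adjusted p = 1.0). Of the members that were lower in Saranac, MsG0480022460.01 had medians of 38.5 CPM in Agate (0.160 to 116) and 23.1 CPM in Saranac (0 to 93.4), a log2 fold change of -1.27 ± 0.34 (SE, edgeR adjusted p = 0.00554). MsG0380016519.01 had medians of 115 CPM in Agate (17.3 to 345) and 80.3 CPM in Saranac (16.7 to 328), one of -0.45 ± 0.15 (SE, edgeR adjusted p = 0.0316), which lost its call in limma-trend, without replicate 2, 3 or 4 and without the 3 libraries named above.

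The fixation effect differed between cultivars in 6 members, 5 with a higher and 1 with a lower effect in Saranac. Of all genes 3.79% were called for a higher effect and 4.85% for a lower one. The 10% of members called was thus close to the share of all genes called in either direction. For MsG0280010631.01 the difference of effects was 9.84 ± 1.63 on the log2 scale (SE, edgeR adjusted p = 3.77e-05). Its medians were 3.49 CPM in effective Agate, 0.762 CPM in ineffective Agate, 0.176 CPM in effective Saranac and 297 CPM in ineffective Saranac. For MsG0480022056.01 the difference was 8.93 ± 1.29 (SE, edgeR adjusted p = 3.69e-06), with medians in the same order of 13.4, 2.12, 41.6 and 1281 CPM. Both identifiers were thus high in ineffective Saranac and low in ineffective Agate. The first kept its direction and lost its call without replicate 4, at 10.3. MsG0180005191.01 had the opposite sign, -1.06 ± 0.28 (SE, edgeR adjusted p = 0.0112), with medians of 4.45, 10.1, 5.22 and 5.92 CPM in the same order. This identifier stood higher in ineffective plants in Agate, and its classes were close in Saranac. It lost its call without replicate 1 or 2, with differences of -0.85 and -0.98.

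Nitrate supply changed 1 member, 1.67% of the 60. MsG0480021483.01 was lower at 6 than at 16 mM over all lines and CO2 levels, with 5.17 to 21.6 CPM and a median of 9.10 at 6 mM (n = 28) and 7.49 to 28.3 CPM and a median of 14.3 at 16 mM (n = 28). Its log2 fold change was -0.59 ± 0.12 (SE, edgeR adjusted p = 0.00845), and its median at 10 mM was 11.6 CPM (n = 29). The ranges overlapped. Of all genes 0.344% were called lower. This call was lost without replicate 1, 2 or 4. In limma-trend it was lost, and the count was 0, without any of 5 single libraries. At 16 mM these were ineffective Agate replicate 1 (600 ppm), ineffective Saranac replicate 4 (600 ppm) and ineffective Saranac replicate 1 (420 ppm). At 6 mM and 420 ppm they were replicate 4 in both Saranac classes.

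The CO2 response over all lines, which the rule did not fix, depended on nitrate in a few members. Between 6 and 10 mM 1 member had a higher and 6 a lower response at 6 mM, where 6.48% of all genes were called for a higher response and 2.99% for a lower one. Among genes of at least 5 CPM these shares were 9.51% and 4.22%. The 11.7% of members called in either direction was thus no higher than the share of these genes called in either direction. MsG0180000439.01 had a mean CO2 difference over the 4 lines of -0.82 at 6 mM and 0.67 at 10 mM on the log2(CPM + 1) scale, and the fitted difference was -1.76 ± 0.46 (SE, edgeR adjusted p = 0.00706), a call lost without replicate 4. MsG0380014517.01 went the same way, from -0.50 at 6 mM to 0.78 at 10 mM (-1.25 ± 0.37, edgeR adjusted p = 0.0189), and lost its call without replicate 1, 3 or 4. MsG0180003776.01 stood at 0.83 at 6 mM and -0.08 at 10 mM (1.26 ± 0.40, edgeR adjusted p = 0.0288) and lost its call in 7 of 12 alternatives. In limma-trend 5 members were called. The count became 3 on leaving out, at 10 mM and 600 ppm, ineffective Agate replicate 1, effective Saranac replicate 3 or ineffective Saranac replicate 4. It also became 3 on leaving out ineffective Agate replicate 1 (10 mM, 420 ppm), ineffective Agate replicate 3 (6 mM, 420 ppm) or effective Saranac replicate 4 (6 mM, 420 ppm). It became 2 on leaving out ineffective Agate replicate 4 (6 mM, 420 ppm).

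Between 6 and 16 mM 3 members had a higher and 4 a lower CO2 response at 6 mM, beside 2.80% and 0.845% of all genes and 3.95% and 1.20% of genes of at least 5 CPM. MsG0280010631.01 and MsG0480022056.01 led those with a higher response, at 7.85 ± 2.04 and 4.91 ± 1.46 on the log2 scale (SE, edgeR adjusted p = 0.0204 and 0.0418). The first lost its call in 5 of 12 alternatives and the second in 8, limma-trend and each replicate number left out among them for both. MsG0480021850.01 had a mean CO2 difference of -0.80 at 6 mM and 0.68 at 16 mM (-1.54 ± 0.40, edgeR adjusted p = 0.0189), and lost its call without replicate 1 or 4. MsG0880044706.01 had the lowest value, -6.47 ± 1.56 (edgeR adjusted p = 0.0137), which was not called in limma-trend, without replicate 2 or without replicate 4. It had no counts in 7 of 10 ineffective Agate libraries at 420 ppm and 691 CPM in another. The members with the lowest within-group spread, MsG0480018353.01 and MsG0680032643.01, had a lower response at 6 than at 10 mM (-0.58 and -0.93, edgeR adjusted p = 0.0150 and 0.00048) and than at 16 mM (-0.64 and -0.78, edgeR adjusted p = 0.0202 and 0.0137). Whether the calls of these members held in the alternatives is not given here. In limma-trend 3 members were called between 6 and 16 mM. The count became 1 on leaving out effective Saranac replicate 1 (16 mM, 600 ppm), effective Agate replicate 4 (16 mM, 600 ppm), ineffective Saranac replicate 4 (16 mM, 420 ppm) or ineffective Agate replicate 4 (6 mM, 420 ppm). It became 0 without effective Agate replicate 3 (16 mM, 600 ppm) or effective Saranac replicate 4 (6 mM, 420 ppm), and 5 without ineffective Agate replicate 3 (16 mM, 420 ppm).

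Whether the opposite response of the fixation classes itself depended on nitrate was tested with the interaction of CO2, fixation class and nitrate. By edgeR 0 members and 0 of all genes were called for 6 against 10 mM, with 4 members and 1032 genes at an unadjusted p under 0.05. For 6 against 16 mM 0 members and 0 genes were called, with 3 members and 1569 genes at an unadjusted p under 0.05. Limma-trend called 0 members in both, and DESeq2 called 0 and 1 members and 106 and 140 genes. These counts do not show that the classes responded alike at each nitrate level.

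The members were more uneven between libraries of a group than the 12707 genes of at least 5 CPM. The within-group SD of log2(CPM + 1) had a median of 0.82 over the members and 0.45 over these genes, and it was above 1 in 20 members (33.3%) and in 12.6% of the genes. Mean CPM had a median of 23.9 over the members, from 5.92 to 769, and of 22.6 over the genes. In 11 members at least 1 library had no counts, 18.3% against 4.88% of the genes. The lowest within-group SD after MsG0480018353.01 was that of MsG0680032643.01, and the highest were those of MsG0280010631.01 and MsG0480022056.01 at 2.82 and 2.78. The rule takes large differences of group means from these libraries, so their spread is not independent of it, and these values are a description of the genes it chose.

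Within groups the members varied together only in part. Correlations were taken across the 85 libraries after subtracting group means, so all pairs share libraries, depth and scaling. The median Pearson r over the 1770 pairs of members was 0.12, against 0.06 over pairs of all genes, and 78 pairs (4.41%) had an r above 0.5, against 1.88%. With TMM scaling 51 pairs did (2.88% against 0.847%). No partner above 0.5 was found for 22 members, while 5 members had at least 10. The members thus share the mean pattern of the rule, and most pairs did not vary together from library to library within a group.

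The pair with the highest r within groups was MsG0380013534.01 and MsG0280010631.01 at 0.90. The other pairs given here were chosen after their values were seen. MsG0480022056.01 had an r of 0.86 with the second of the pair and 0.78 with the first, and MsG0280007208.01 and MsG0280008039.01 stood at 0.83. Of the first 3 identifiers, all 3 were above 10 CPM in 26 libraries and none in 37, while 19 libraries had 1 of them above and 3 had 2. In effective Saranac at 420 ppm MsG0480022056.01 was above 10 CPM in 11 of 11 libraries and each of the other two in 3. In ineffective Saranac at 600 ppm all 3 were above 10 CPM in 10 of 11 libraries, and at 420 ppm in 6 of 10. In ineffective Agate none of the 21 libraries had all 3. In effective Agate 5 of 11 libraries had all 3 at 420 ppm and 0 of 11 at 600 ppm, and in effective Saranac 3 of 11 and 2 of 10 did. The medians of MsG0280010631.01 in effective Saranac were 0.176 CPM at 420 ppm (0 to 1277) and 0.183 CPM at 600 ppm (0 to 286), so these medians were close while its CO2 difference in the rule was -0.42, and 3 of 11 and 2 of 10 libraries were above 10 CPM. In ineffective Agate MsG0380013534.01 stood at 0.0460 CPM (0 to 1.45) and 0.930 CPM (0 to 5.25) at 420 and 600 ppm, with no counts in 5 of 10 and 1 of 11 libraries, so both levels were near 0. In ineffective Saranac its medians were 28.4 CPM (0.0542 to 54.6) and 44.8 CPM (3.33 to 75.03).

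The members were spread over the table of identifiers. They began with each of the 9 starts from MsG00 to MsG08, most often with MsG08 (11 members, 18.3% against 13.8% of the 12707 genes) and least often with MsG00 (1 member) and MsG07 (3 members, 5.00% against 12.1%). The closest members stood 7 rows apart in the table, so no 2 members were neighbours.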

How the data were processed

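The authors deposited raw counts per gene identifier for 86 leaf libraries, made with featureCounts per the submitters' processing notes. The strand setting, aligner, genome build and annotation were not given in the sources used here, so reads that near-identical copies or antisense genes share could have been split or dropped. Of the identifiers, 10407 had no counts in any grouped library, and none matched the reference table of assembly Bolivia_mono. The 85 libraries with a group were used, with total counts of 13543807 to 25910031, which limits the precision of low genes. A further library, labelled effective in one field and ineffective in another, was not used in any comparison.

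CPM was the count over the library total, with a pseudocount of 1 on the log2 scale. In R 4.3.3, edgeR 4.0.16 was run with its quasi-likelihood test on the deposited counts, with 1 mean per group, TMM scaling, filterByExpr (24386 genes) and Benjamini-Hochberg adjustment over all genes tested, with a threshold of 0.05. The SE of a log2 fold change is its size divided by the square root of the F statistic. There were 8 tested contrasts, each at right angles to those of the rule. Alternatives were DESeq2 size factors, DESeq2 1.42.0, limma-trend (limma 3.58.1, prior count of 2), no filter, a replicate block, each replicate number and each single library left out, the library with a number out of order left out, the 2 libraries of largest residual variance left out and, chosen after the data were seen, 3 libraries that stood apart in member level left out. On simulated counts the rule and the edgeR fit were checked. The changes planted for the rule were larger than the median differences of the members, and the spread was smaller than their median within-group SD. That check thus does not show how the rule performs on these data. Single members are those of highest score, next to the threshold, of highest mean CPM, of lowest or highest within-group SD, in the pair of highest r, and the 2 highest and 2 lowest log2 fold changes among called members of each contrast. The members, lists and tests were chosen with earlier results of these data known.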

Additional observations from a re-analysis of the deposited data

Results flagged for a closer look

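A library stood apart from the others of its set in 8 of 73 groups tested by the gap between its value and the next over the range of the group (Dixon's test). The test is set to flag about 1 in 20 groups of independent, normal values. Some of these groups pool nitrate levels, hold skewed CPM or share libraries, so the 8 cannot be set against that rate. In the mean level of the members, ineffective Agate replicate 3 (6 mM, 600 ppm) was low at -0.55, against 0.47 to 0.55 in the other 3 libraries of its group. Ineffective Agate replicate 3 (10 mM, 420 ppm) was high at 0.64 among 10 libraries, and ineffective Saranac replicate 1 (10 mM, 420 ppm) was high at 0.74 among 10. Without all libraries of replicate 3 the rule named 29 of the 60 members again, and without those of replicate 1 it named 33.

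In single members, MsG0280008039.01 was high in ineffective Agate replicate 3 (10 mM, 420 ppm), with 2176 CPM against a median of 567 CPM in its set, and in effective Saranac replicate 3 (10 mM, 600 ppm), with 693 CPM against a median of 305 CPM. MsG0880044706.01 had 691 CPM in ineffective Agate replicate 2 (6 mM, 420 ppm), where the median of the set was 0 CPM. Ineffective Agate replicate 2 (16 mM, 420 ppm) held the highest values of MsG0280010631.01, 1.23 CPM, and of MsG0380013534.01, 1.45 CPM, in a set where both were near 0.

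The fixation effect differed between cultivars, tested as an interaction in edgeR, by 9.84 in MsG0280010631.01, by 8.93 in MsG0480022056.01 and by -1.06 in MsG0180005191.01 on the log2 scale. Between 6 and 10 mM the CO2 response differed by 1.26 in MsG0180003776.01, by -1.76 in MsG0180000439.01 and by -1.25 in MsG0380014517.01. Between 6 and 16 mM it differed by 7.85 in MsG0280010631.01, by 4.91 in MsG0480022056.01, by -6.47 in MsG0880044706.01 and by -1.54 in MsG0480021850.01.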

How the results depend on the processing

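The counts of called members for fixation class and for cultivar stayed within 1.5 times of the reported ones in all 12 alternatives. The fixation effect by cultivar called 11 members with DESeq2 in place of 6, and 3 to 5 with replicate numbers left out. Nitrate at 6 against 16 mM called 0 to 1. The CO2 response at 6 against 10 mM called 2 to 6 in place of 7 with replicate numbers left out. At 6 against 16 mM it called 3 with limma-trend and 0 to 4 with replicate numbers left out, in place of 7. The interaction of CO2, fixation and nitrate at 6 against 16 mM called 1 with DESeq2 in place of 0. The rule named 23 of the 60 members again with TMM scaling, 38 with the median of the libraries of a group, and 29 to 38 with replicate numbers left out. With a pseudocount of 0.1 or 5 it named 53 and 47, and without the 2 libraries of largest residual variance 51. The cause was not tested. Without the 3 libraries that stood apart in member level, chosen after the data were seen, all these counts stayed within 1.5 times, and 34 of the 36 members called for fixation class were called again.

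Of 216 values of named members under alternatives 174 kept their call, 42 lost it and 0 changed sign, and 6 of 18 named calls held in every alternative. Over all groups together, replicate numbers showed no pairing of the libraries. Residuals of libraries with the same number had a mean r of -0.0025 over 864 pairs. Of 85 libraries 13 correlated best with their own number. These pairs pool both CO2 levels and all nitrate levels, so a pairing within a chamber was not tested. With the replicate block edgeR called 36 members for fixation class, 10 for cultivar, 8 for fixation class by cultivar, 1 for nitrate, 5 and 6 for the CO2 response by nitrate, and 0 for both interactions with fixation, and the values of MsG0180003776.01 and MsG0480022056.01 for CO2 by nitrate, 1.17 and 4.88, were not called.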

Other observations

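The library whose labels contradict each other on fixation class, an Agate library at 10 mM and 420 ppm, had a mean member level of -0.04. The 3 effective Agate libraries of that treatment stood at -0.19, 0.39 and 0.54, and the 3 ineffective ones at -0.70, -0.56 and 0.64, so the members do not place it in either class.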
